A study of Rattus norvegicus with 17 samples.

Results

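The genes described here are those of the MHC class II antigen presentation pathway, chosen by name: Cd74, Ciita and the rat class II genes RT1-Da, RT1-Db1, RT1-Ba, RT1-Bb, RT1-DMa and RT1-DMb. Of these 8 genes, 2 (Cd74 and Ciita) had a row among the 17251 genes of the expression table, and both passed the filter on low values. The other 6, which encode the antigen-binding chains and the peptide exchange chains, were not analysed here, nor were 6 further class II chains (RT1-DOa, RT1-DOb, RT1-Db2, RT1-Ha, RT1-Hb and RT1-Hb-ps1). The data are RNA sequencing of the meibomian gland, the lipid-secreting gland of the eyelid, from female Sprague-Dawley rats aged 10 to 12 weeks. Control WT (wild-type, no UVB, n = 4), Control P1.hMR (transgenic, no UVB, n = 5), UVB WT (n = 3) and UVB P1.hMR (n = 5) were the 4 groups, and in both UVB groups the eyelids had been irradiated over 5 days. P1.hMR rats carry the human mineralocorticoid receptor gene NR3C2 under its own proximal P1 promoter, which is active in all tissues that express the receptor, so the transgene was not limited to the gland or to immune cells. Each of the 17 libraries is taken here as 1 rat. The study's methods count more eyes than libraries under UVB and state that both eyes of an animal, where used, were merged into 1 sample, and the p-values measure only the spread between these libraries.

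MHC class II molecules display peptides from the endosomes of antigen-presenting cells, chiefly dendritic cells, macrophages and B cells, to helper T cells. Ciita, the class II transactivator, does not bind DNA itself but is recruited to class II promoters by factors that sit on short conserved boxes, and it sets how strongly these genes are transcribed. Cd74, the invariant chain, fills the peptide groove of a new class II molecule and guides it to the endosome, where proteases of the cathepsin family degrade it. Class I molecules, which need the light chain B2m, are by contrast made by nearly all cells. In the epidermis the resident class II-bearing cell is the Langerhans cell, marked by Cd207 (langerin).

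The promoter of Cd74 is shown because Cd74 and the RT1 class II genes are known to share promoter boxes, which links the measured gene to those not analysed here. The RefSeq promoter table (assembly GRCr8, which is not the rn7 build of the expression data) held 6 of the 8 genes, without Ciita and RT1-DMb. Bases upstream of the annotated start are given 5′ to 3′ on the strand of the gene, with 2 motifs in capitals: the core of the X box, TAGCAAC, and that of the Y box, CCAAT or its reverse complement ATTGG. The first is Cd74 (chr18:56526956-56527205, plus strand, 250 bases), followed by RT1-Da (chr20:4515285-4515414, plus strand, 130 bases) and RT1-Db1 (chr20:4560163-4560292, minus strand, 130 bases).
Cd74: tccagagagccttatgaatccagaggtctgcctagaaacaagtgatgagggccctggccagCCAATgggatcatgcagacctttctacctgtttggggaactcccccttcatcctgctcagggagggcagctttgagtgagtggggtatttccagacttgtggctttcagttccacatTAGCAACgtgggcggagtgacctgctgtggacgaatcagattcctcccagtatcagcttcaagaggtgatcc
RT1-Da: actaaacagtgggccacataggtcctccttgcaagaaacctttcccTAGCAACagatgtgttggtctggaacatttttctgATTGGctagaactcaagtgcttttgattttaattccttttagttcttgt
RT1-Db1: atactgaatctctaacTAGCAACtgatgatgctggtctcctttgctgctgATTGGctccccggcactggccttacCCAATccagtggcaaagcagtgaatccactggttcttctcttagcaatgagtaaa
In Cd74 the X box letters began at position -72 from the start and a CCAAT at position -189, upstream of them. In RT1-Da the X box letters began at -84, with ATTGG downstream at -49. In RT1-Db1 they began at -114, with ATTGG at -80 and CCAAT at -55. The order and spacing of the marked letters in Cd74 thus differed from those in these RT1 genes. Over the whole 300-base windows (250 bases before to 50 after the start), all 6 promoters held CCAAT or ATTGG and 3 of them, those printed here, held TAGCAAC on either strand. Among all 27457 promoters of the table, 37.74% held the first motif, 3.54% the second and 1.43% both. A match is a description of letters and not a measured binding site.

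The libraries were comparable in what they listed. The genes of the table summed to between 80.4% and 84.1% of the fixed total of the TPM scale (transcript abundance corrected for gene length and library size), and between 12372 and 12737 genes reached 1 TPM. NR3C2 was listed at 0 in all 7 WT rats and at 5.31 to 9.31 TPM in the 10 P1.hMR rats. The meibocyte markers, genes of the lipid-making gland cells such as Awat2 and Elovl3, summed to between 16270 and 25940 TPM per rat, so the labelled tissue carried its defining genes. Muscle markers summed to 1661 to 3808 TPM and hair keratins to 187.9 to 838.2 TPM. TPM values hold no read counts, and the study's methods give mapped reads as a range over libraries and not for each, so no counting error is set beside the values.

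Cd74 was an abundant transcript in every rat and Ciita a scarce one. Cd74 measured 196, 239, 269 and 366 TPM in Control WT rats 1 to 4, and 264, 342, 268, 342 and 278 TPM in Control P1.hMR rats 1 to 5. After UVB, Cd74 measured 228, 171 and 287 TPM in UVB WT rats 1 to 3, and 314, 228, 243, 295 and 282 TPM in UVB P1.hMR rats 1 to 5. The highest and the lowest values, 366 and 171 TPM, both came from WT rats, and the ranges of all 4 groups overlapped. By group mean, the order of Cd74 was Control P1.hMR (299 ± 39.8 TPM, SD, n = 5), UVB P1.hMR (272 ± 36.1, n = 5), Control WT (267 ± 72.4, n = 4) and UVB WT (229 ± 57.8, n = 3). Every neighbouring pair in that order lay closer together than the SD of either group. By mean TPM, Cd74 ranked between 424th and 588th of the 17251 genes in the 4 groups.

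Ciita measured 0.98, 1.39, 1.72 and 1.59 TPM in Control WT rats 1 to 4, and 1.39, 1.61, 1.71, 1.87 and 1.75 TPM in Control P1.hMR rats 1 to 5. After UVB it measured 1.61, 1.10 and 2.17 TPM in UVB WT rats 1 to 3, and 2.38, 1.59, 1.53, 2.38 and 2.11 TPM in UVB P1.hMR rats 1 to 5. The 3 highest levels among UVB P1.hMR rats stood above every control rat, whereas the other 2 lay inside the control range. By group mean, the order of Ciita was UVB P1.hMR (2.00 ± 0.415 TPM), Control P1.hMR (1.67 ± 0.180), UVB WT (1.63 ± 0.535) and Control WT (1.42 ± 0.323). Each neighbouring pair in that order lay within the larger SD of the pair. Ciita ranked between 11617th and 12099th of the 17251 genes. Rats within a group varied more for both genes than for most others. The within-group SD on the log2(TPM + 1) scale was 0.28 for Cd74 and 0.20 for Ciita, against a median of 0.13 over the 13105 genes tested, and 89.8% and 77.0% of these had a smaller SD than Cd74 and Ciita, respectively.

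**Figure D1:**
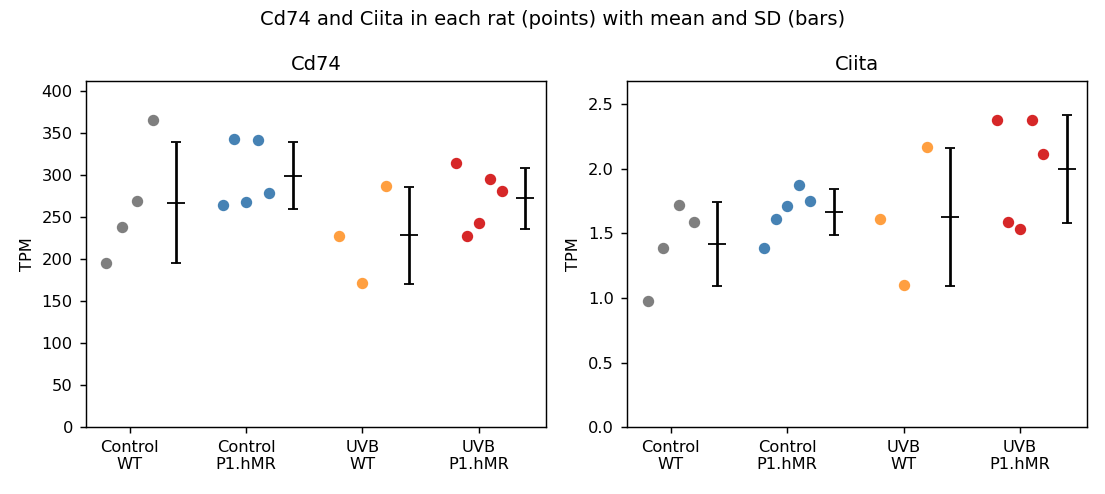
Level of Cd74 (left) and Ciita (right) in TPM on the y axes, which start at 0, for each rat (points) in the 4 groups; the bars beside the points are the mean and SD. The groups overlap for both genes, with Cd74 between 171 and 366 TPM and Ciita between 0.98 and 2.38 TPM.

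The effect of UVB on each genotype was the main comparison. Neither Cd74 nor Ciita passed the test in WT or in P1.hMR rats. A gene was called when its Benjamini-Hochberg adjusted p in the limma fit was under 0.05 and its log2 fold change on the log2(TPM + 1) scale was at least 0.5 in size. In WT rats the difference UVB minus control was -0.22 for Cd74 (SE 0.190, 95% interval -0.62 to 0.18, adjusted p = 0.44) and 0.11 for Ciita (SE 0.150, interval -0.21 to 0.42, adjusted p = 0.645). Thus 0 of 2 genes were called, where 7.91% of all 13105 genes tested were called in either direction. In P1.hMR rats it was -0.14 for Cd74 (SE 0.157, interval -0.47 to 0.20, adjusted p = 0.525) and 0.16 for Ciita (SE 0.124, interval -0.10 to 0.42, adjusted p = 0.323). Again 0 of 2 were called, against 10.8% of all genes tested. At an unadjusted p under 0.05 the count was also 0 of 2 in both comparisons, where 35.3% of all genes had such a p in WT rats and 47.6% in P1.hMR rats, and no other tool was run. On the log2(TPM + 1) scale the intervals of Cd74 reached past a fall of 0.5 in WT rats but not in P1.hMR rats. No interval of either gene reached a rise of 0.5 on that scale. It understates changes of low genes. For Ciita, at 0.98 to 2.38 TPM, the intervals therefore do not exclude a rise of 0.5 in log2 TPM.

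The effect of the transgene was compared without and with UVB. Among control rats the difference P1.hMR minus WT was 0.19 for Cd74 (SE 0.167, interval -0.16 to 0.54) and 0.15 for Ciita (SE 0.132, interval -0.13 to 0.43), both with an adjusted p of 0.998 in limma. Here 0 of 2 genes were called, against 0.00763% of all genes tested. Among UVB rats it was 0.27 for Cd74 (SE 0.182, interval -0.11 to 0.66, adjusted p = 0.646) and 0.20 for Ciita (SE 0.143, interval -0.10 to 0.50, adjusted p = 0.676), and 0 of 2 were called against 0.0229% of all genes. Unadjusted p-values under 0.05 were found for 0 of 2 genes in these comparisons too, against 4.03% of all genes among control rats and 10.3% among UVB rats. Tested directly, the UVB effect in P1.hMR rats minus that in WT rats was 0.08 for Cd74 (interval -0.44 to 0.61, adjusted p = 0.965) and 0.05 for Ciita (interval -0.36 to 0.46, adjusted p = 0.976). This test called 0% of all genes, and neither member had an unadjusted p under 0.05, as 6.92% of all genes did. The 4 genotype and UVB comparisons share groups, so the values of one are not independent of those of another.

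The level of Cd74 relative to Ciita had a lower mean after UVB in both genotypes, but the difference did not pass after adjustment. Cd74 stood 157 to 230 times above Ciita in Control WT rats, 157 to 213 times in Control P1.hMR rats, 132 to 156 times in UVB WT rats and 124 to 159 times in UVB P1.hMR rats. The UVB WT and Control WT ranges did not overlap, whereas in P1.hMR rats 1 UVB rat (rat 3, at 159) stood above the lowest control rat. On the log2 scale the ratio differed by -0.39 in WT rats (p = 0.0571, the smallest that 3 against 4 rats allow, adjusted p = 0.0762) and by -0.38 in P1.hMR rats (p = 0.0159, adjusted p = 0.0635) in exact two-sided permutation tests. These belong to 4 tests, of the ratio of Cd74 to Ciita and to B2m in each genotype, which were added after the values had been seen, and the p-values were adjusted over the 4. A ratio is the difference of the log2 values of its genes and is not independent of their own tests.

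The factors that bring Ciita to class II promoters did not pass the test. Of 7 genes of this group, 6 were tested: Rfx5 and Rfxank of the X box complex, Nfya, Nfyb and Nfyc of the Y box complex, and Creb1. In both UVB comparisons 0 of 6 were called, with a median log2 fold change of -0.06 in WT rats and -0.11 in those with P1.hMR. The medians over all genes tested were 0.0054 and -0.016. Their summed level lay between 121.0 and 141.6 TPM in all rats.

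The lysosomal proteases and helpers that trim Cd74 and antigens showed 1 called gene. Of 8 tested, Ctsz (cathepsin Z) was called higher in both genotypes, against 3.92% of all genes called higher in WT and 5.05% in P1.hMR rats. Its level went from 35.4 ± 6.52 to 50.4 ± 6.97 TPM in WT (log2 fold change 0.51, limma adjusted p = 0.0192) and from 37.6 ± 4.78 to 54.3 ± 7.37 TPM in P1.hMR rats (0.52, adjusted p = 0.00267). The call sat close to the fold threshold and ended with 4 of the 17 single-rat omissions in WT and with 3 in P1.hMR rats. It was lost without Control WT rat 1 (0.44), Control WT rat 3 (0.44), UVB WT rat 1 (0.46) or UVB WT rat 3 (0.44), and without Control P1.hMR rat 3 (0.48) or UVB P1.hMR rats 4 (0.50) or 5 (0.46). Ctss, the cathepsin best known for cleaving Cd74, differed by 0.01 in WT rats and 0.20 in those with P1.hMR and was not called (it was chosen for mention after its values were seen). The median of the 8 genes was 0.12 in WT rats and 0.17 in those with P1.hMR. For surface turnover of class II molecules 4 of the 6 names listed had a row, 2 were tested and 0 were called in either genotype, with medians of -0.28 and -0.26. In P1.hMR rats 1 of these was called lower without Control P1.hMR rat 3 or without UVB P1.hMR rat 1.

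Costimulatory and checkpoint ligands, the second signal that antigen-presenting cells give T cells, changed in different directions. Cd274 (PD-L1), a ligand that restrains T cells, fell from 27.6 ± 2.82 to 15.0 ± 2.00 TPM in WT (log2 fold change -0.84, limma adjusted p = 0.00109) and from 26.2 ± 4.46 to 15.7 ± 2.32 TPM in P1.hMR rats (-0.70, adjusted p = 0.000302). Cd80, a stimulating ligand of CD28, was called higher in P1.hMR rats, where it rose from 0.266 ± 0.131 to 1.10 ± 0.271 TPM (0.72, adjusted p = 0.000115). In WT rats Cd80 measured 0.350 ± 0.121 TPM without and 0.787 ± 0.163 TPM with UVB (0.40, adjusted p = 0.0412), under the fold threshold. The limma test of its UVB effect between genotypes did not pass (0.32, adjusted p = 0.758). Cd86, the other CD28 ligand, was called lower in WT rats, from 2.01 ± 0.578 to 1.09 ± 0.512 TPM (-0.54, adjusted p = 0.0419), a call that 8 of 17 single-rat omissions ended (-0.33 without UVB WT rat 2, with adjusted p = 0.223). The other 7 omissions that ended it were those of Control WT rats 2, 3 and 4, UVB WT rat 3, Control P1.hMR rats 3 and 5 and UVB P1.hMR rat 3, with Cd86 between -0.58 and -0.42. Of the 5 genes tested, 0 were called higher and 2 lower in WT, where 3.98% of all genes were called lower, and 1 higher and 1 lower in P1.hMR rats, where 5.71% were. Without UVB P1.hMR rat 2 the count called lower there was 2.

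In the interferon-gamma axis, the signal that induces Ciita in many cells, 1 of 11 genes tested was called. Of all genes, 3.98% were called lower in WT and 5.71% in P1.hMR rats. Irf1, a transcription factor downstream of the interferon-gamma receptor, fell from 33.5 ± 5.08 to 20.1 ± 1.08 TPM in WT (log2 fold change -0.70, limma adjusted p = 0.000382) and from 39.1 ± 1.64 to 21.5 ± 2.47 TPM in P1.hMR rats (-0.84, adjusted p = 4.31e-06). In both genotypes every UVB rat lay below every control rat. The list median was -0.01 in WT rats and -0.17 in those with P1.hMR. Irf1 fell while Ciita, which is known to respond to this axis, was not called in either direction.

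Part of the class I presentation genes were called lower in P1.hMR rats. Of 13 genes tested, 3 were called lower and 0 higher in P1.hMR rats, and 0 were called in WT rats, while the test of the difference between the genotypes called 0 of the 13. In WT rats 1 gene was called lower without Control WT rat 1 or without UVB WT rat 1, and in P1.hMR rats the count of 3 fell to 1 without Control P1.hMR rat 3 or without UVB P1.hMR rat 3. Nlrc5, the class I counterpart of Ciita, fell from 3.52 ± 0.549 to 1.94 ± 0.168 TPM in P1.hMR rats (log2 fold change -0.62, limma adjusted p = 5.14e-05) and measured 3.00 ± 0.348 and 2.00 ± 0.171 TPM in WT rats (-0.41, adjusted p = 0.0102). B2m fell from 503 ± 29.3 to 353 ± 41.0 TPM in P1.hMR rats (-0.52, adjusted p = 0.000106) and measured 507 ± 55.8 and 365 ± 12.6 TPM in WT rats (-0.46, adjusted p = 0.00307). Psmb8, a subunit of the immunoproteasome that cuts class I peptides, fell from 11.0 ± 0.852 to 7.49 ± 2.05 TPM in P1.hMR rats (-0.53, adjusted p = 0.0378). In WT rats Psmb8 differed by -0.46 (limma adjusted p = 0.166). The calls of B2m and Psmb8 lay near the thresholds. That of B2m ended without Control P1.hMR rat 3 (-0.49), UVB P1.hMR rat 3 (-0.49) or UVB P1.hMR rat 5 (-0.46). That of Psmb8 ended with 7 of 17 omissions, those of Control P1.hMR rats 1, 2, 3 and 5 and UVB P1.hMR rats 2, 3 and 4 (-0.54 to -0.38). Nlrc5 stayed called in P1.hMR rats in all 17 (-0.65 to -0.55). Over the 13 genes the median log2 fold change was -0.14 in WT rats and -0.23 in those with P1.hMR.

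Cd74 was also set against B2m, and neither genotype passed after adjustment. The log2 ratio of Cd74 to B2m was higher after UVB by 0.25 in WT rats (exact permutation p = 0.4, adjusted p = 0.4) and by 0.38 in P1.hMR rats (exact p = 0.0317, adjusted p = 0.0635), and the groups overlapped in both.

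**Figure D2:**
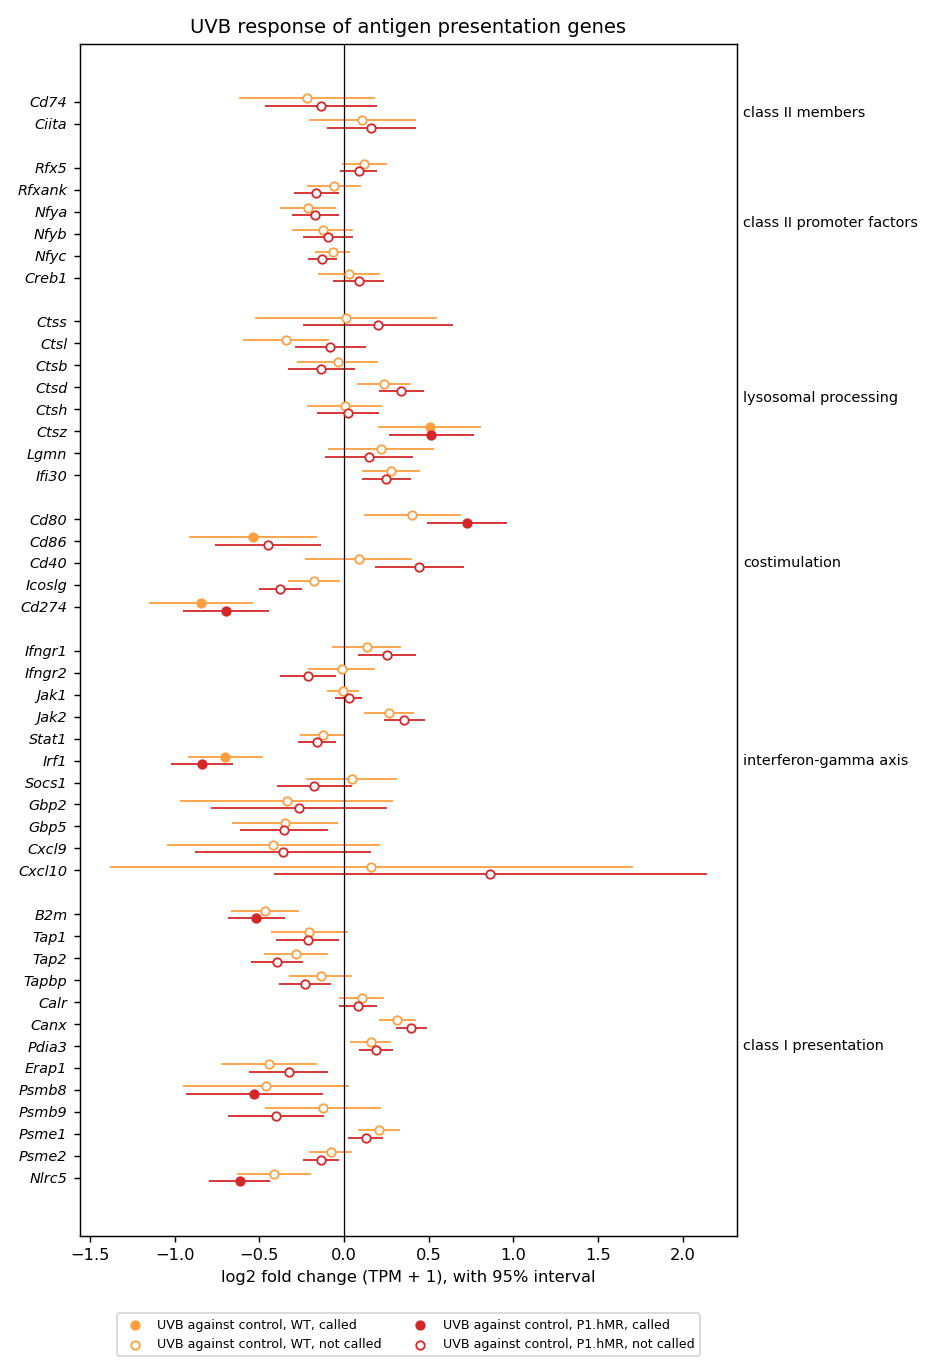
Log2 fold change on the log2(TPM + 1) scale, UVB minus control, with its 95% interval (x axis) for Cd74, Ciita and 5 groups of antigen presentation genes (y axis), in WT (orange) and P1.hMR rats (red); filled points were called. Cd74 and Ciita are open in both genotypes, whereas Irf1 and Cd274 are filled on the left of 0 in both and Ctsz on the right.

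The cells that carry class II molecules were then examined by their markers, since a bulk level of Cd74 or Ciita cannot separate the number of cells from the RNA per cell. Macrophage markers rose in part. Of 13 tested, 8 were called higher and 0 lower in WT and likewise 8 and 0 in P1.hMR rats. Of all genes, 3.92% were called higher in WT and 5.05% in P1.hMR rats. Cd163, a scavenger receptor of tissue macrophages, rose from 0.970 ± 0.370 to 11.2 ± 4.93 TPM in WT (log2 fold change 2.55, limma adjusted p = 4.97e-05) and from 1.01 ± 0.560 to 11.7 ± 3.41 TPM in P1.hMR rats (2.66, adjusted p = 1.48e-06). Mrc1, the mannose receptor, rose by 1.33 in both genotypes (adjusted p = 0.00539 and 0.000547), and C1qb, a chain of complement C1q, by 1.25 and 1.34 (adjusted p = 0.0029 and 0.00014). The calls of Cd163, Mrc1 and C1qb stood in both genotypes whichever rat was left out. Without Control WT rat 1 the list also held 1 gene called lower in WT rats. The macrophage genes Csf1r (0.02 in WT rats and -0.12 in those with P1.hMR) and Cd68 (-0.36 and -0.29) were not called (these 2 were chosen for mention after their values were seen). The summed level of the 14 macrophage markers ranged from 212.3 to 548.0 TPM in Control WT, from 218.2 to 483.9 in Control P1.hMR, from 269.2 to 429.8 in UVB WT and from 371.0 to 506.1 TPM in UVB P1.hMR rats.

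Dendritic cell markers were called higher in part and the Langerhans cell marker Cd207 lower. Clec10a, a lectin of dendritic cells and macrophages, rose by 1.10 in both WT (from 6.62 ± 1.58 to 15.6 ± 4.74 TPM, limma adjusted p = 0.00248) and P1.hMR rats (from 7.60 ± 1.58 to 17.5 ± 3.69 TPM, adjusted p = 0.000191). Ccr7, the receptor that leads migrating dendritic cells to lymph nodes, rose by 0.50 in WT rats and 0.69 in those with P1.hMR (adjusted p = 0.0302 and 0.000607), and Flt3, a receptor of the dendritic lineage, by 0.56 in P1.hMR rats (adjusted p = 0.004). In WT rats Flt3 differed by 0.48 (adjusted p = 0.0444), under the fold threshold. The limma test of its UVB effect between genotypes did not pass (0.07, adjusted p = 0.963). Of 7 dendritic markers tested, 2 were called higher in WT rats and 3 in those with P1.hMR, and 0 lower. Of all genes, 3.92% and 5.05% were called higher, respectively. Itgax, Batf3, Zbtb46 and Irf8 were not called in either genotype (chosen for mention after their values were seen). In WT rats they differed by -0.20, -0.21, 0.05 and 0.20 (limma adjusted p = 0.387, 0.588, 0.818 and 0.175). In P1.hMR rats Irf8 ranged from 9.91 to 11.96 TPM without and from 12.29 to 16.12 TPM with UVB. Means there without and with UVB were 1.61 and 1.36 TPM for Itgax, 0.596 and 0.784 for Batf3, and 0.820 and 1.05 for Zbtb46. The WT call of Ccr7 ended without any 1 of Control WT rats 2, 3 and 4 or UVB WT rats 1 and 3 (0.43 to 0.51). Flt3 was called in WT rats without Control WT rat 4 (0.54) or UVB WT rat 2 (0.73). With 1 rat left out, the count of dendritic markers called higher in WT rats ran from 1 to 3.

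Cd207 measured 13.1, 16.6, 21.1 and 27.1 TPM in Control WT rats 1 to 4 and 6.83, 8.60 and 9.30 TPM in UVB WT rats 1 to 3. In Control P1.hMR rats it ranged from 17.9 to 31.8 TPM and in UVB P1.hMR rats from 6.66 to 9.86 TPM. Every UVB rat stood below every control rat. Cd207 fell by 1.11 in WT rats and by 1.26 in those with P1.hMR on the log2 scale (limma adjusted p = 0.00217 and 5.63e-05). The other 2 genes of its list, which other cells also make, stayed under the fold threshold and differed in opposite directions. Epcam, an epithelial adhesion gene, differed by -0.32 in WT rats and -0.34 in those with P1.hMR (adjusted p = 0.00269 and 0.000125). Cd1d1, which presents lipids, differed by 0.40 and 0.33 (adjusted p = 0.00174 and 0.000548). These 2 were chosen for mention after their values were seen.

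Among lymphocytes, 2 of 4 T cell markers rose, the Cd3 genes did not pass the test and no B cell marker was called. Of 4 T cell genes tested, Cd8a and Cd2 were called higher in both genotypes. The other 2 encode chains of the CD3 complex shared by T cells and were chosen for mention after their values were seen. Cd3e differed by -0.33 in WT rats and -0.26 in those with P1.hMR (limma adjusted p = 0.333 and 0.307), and Cd3g by -0.29 and 0.13 (adjusted p = 0.554 and 0.732). Cd8a, the coreceptor of cytotoxic T cells, which read class I and not class II, rose by 1.07 in WT rats and 1.84 in those with P1.hMR (limma adjusted p = 0.000232 and 1.21e-07). Among UVB rats Cd8a was also called higher in the P1.hMR than in the WT genotype (0.89, adjusted p = 0.0364), as were 0.0153% of all genes, while the test of its UVB effect between genotypes did not pass (0.77, adjusted p = 0.704). The B cell gene Ms4a1 (CD20), chosen for mention after its values were seen, reached at most 0.06 TPM in the 17 rats, and of B cell markers 1 passed the filter on low values and 0 were called in either genotype. Of 5 leukocyte markers tested, 0 were called in WT rats. In P1.hMR rats 1, Laptm5, was called higher (0.66, limma adjusted p = 0.00605), where 5.05% of all genes were. Laptm5 was called in WT rats too without Control WT rat 4 (0.64) or UVB WT rat 2 (0.72). In P1.hMR rats 2 of the 5 were called without Control P1.hMR rat 2. The general leukocyte gene Ptprc (CD45), chosen for mention after its values were seen, differed by 0.03 in WT rats and -0.03 in those with P1.hMR.

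Markers of the gland itself and of neighbouring tissue moved with UVB as well. Of 10 meibocyte genes, Elovl3, a fatty acid elongase, was called higher and Awat2, a wax synthase, and Scd4, a desaturase, lower in both genotypes. Of 10 hair keratins 5 were called lower in WT and 3 in P1.hMR rats, of 8 muscle genes 1 and 2 were called lower, respectively, and of 4 endothelial genes Vwf was called higher in both. Of all genes, 3.92% were called higher and 3.98% lower in WT, and 5.05% and 5.71% in P1.hMR rats. The hair keratin counts rested on single rats. With 1 rat left out they ran from 0 (without UVB WT rat 2) to 9 (without Control WT rat 2 or UVB WT rat 3) in WT and from 0 (without Control P1.hMR rats 2 or 5 or UVB P1.hMR rats 2 or 5) to 7 (without Control P1.hMR rat 3) in P1.hMR rats. Counts of 1 to 3 were left in WT without Control WT rats 1, 3 or 4 or UVB WT rat 1, and of 1 in P1.hMR rats without Control P1.hMR rats 1 or 4. The muscle count was 2 in WT without UVB WT rat 1 and fell to 1 in P1.hMR rats without Control P1.hMR rats 1, 2 or 4 or UVB P1.hMR rats 1, 4 or 5. With 1 rat left out, the muscle count in P1.hMR rats ran from 1 to 3. The WT call of Elovl3 ended without Control WT rats 3 or 4 or UVB WT rats 2 or 3, and 1 meibocyte gene was called lower in P1.hMR rats without UVB P1.hMR rat 5. The part of this mix in the levels of Cd74 and Ciita was not tested. A rescaling of TPM without muscle and hair keratin genes called neither gene, but it cannot serve as such a test. These genes held at most 3808 and 838.2 TPM per rat of at least 804378 listed, so it could hardly move any level. The meibocyte genes were not removed in it.

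**Figure D3:**
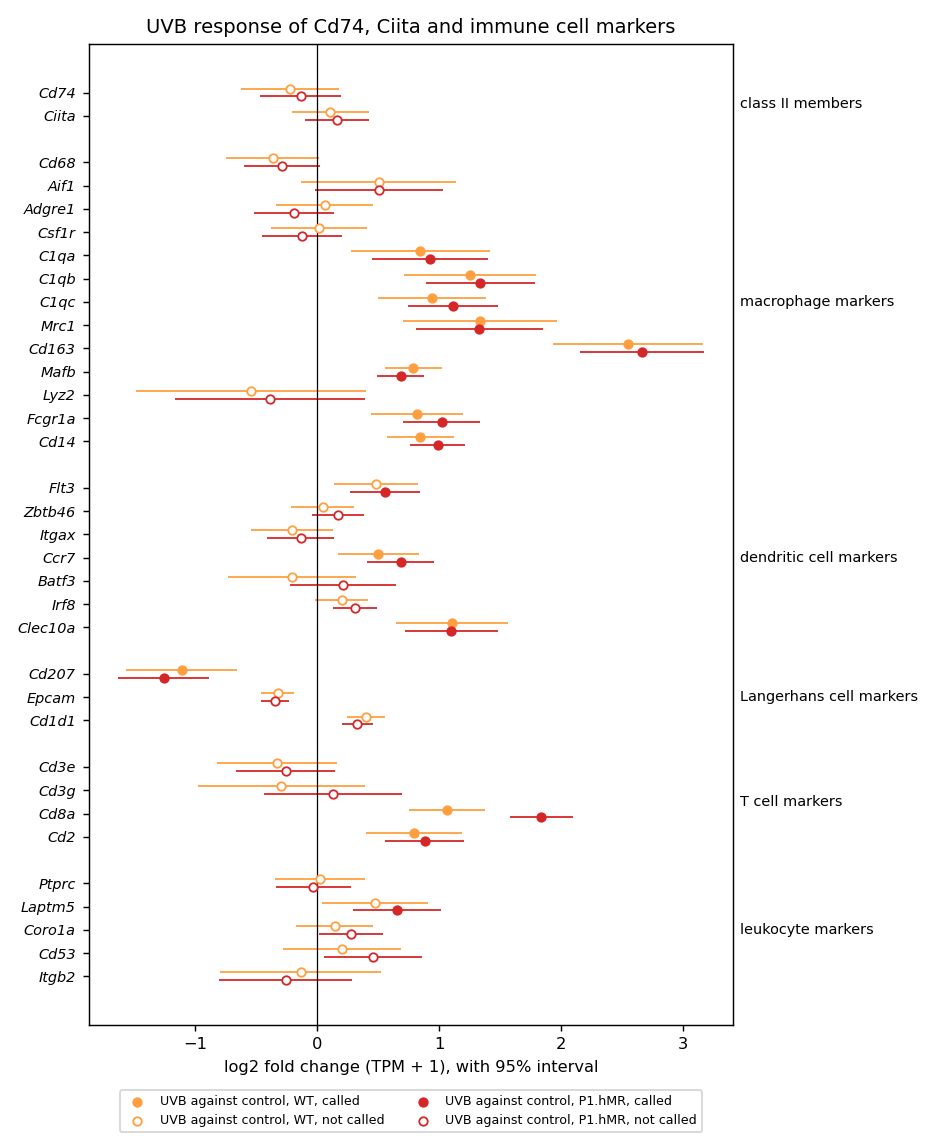
Log2 fold change on the log2(TPM + 1) scale, UVB minus control, with its 95% interval (x axis) for Cd74, Ciita and markers of immune cells (y axis), in WT (orange) and P1.hMR rats (red); filled points were called. Cd163 stands furthest to the right, at 2.55 and 2.66, and Cd207 furthest to the left, at -1.11 and -1.26, with Cd74 and Ciita close to 0 between them.

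The level of Cd74 relative to macrophage markers and to Cd207 is given as a description, with no test, because on the log2 scale a difference in ratio is the change of Cd74 minus that of the reference, and those changes are given above. Against the mean log2 level of the 13 macrophage markers tested, the log2 ratio of Cd74 was 4.52 ± 0.203 in Control WT and 3.61 ± 0.142 in UVB WT rats, and 4.60 ± 0.177 in Control P1.hMR and 3.73 ± 0.174 in UVB P1.hMR rats. Against Cd207 it was 3.72 ± 0.0834 in Control WT and 4.61 ± 0.389 in UVB WT rats, and 3.72 ± 0.189 in Control P1.hMR and 4.84 ± 0.351 in UVB P1.hMR rats. Cd74, which was not called, thus stood lower against macrophage markers and higher against Cd207 after UVB. The part of cell number in these ratios was not tested.

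**Figure D4:**
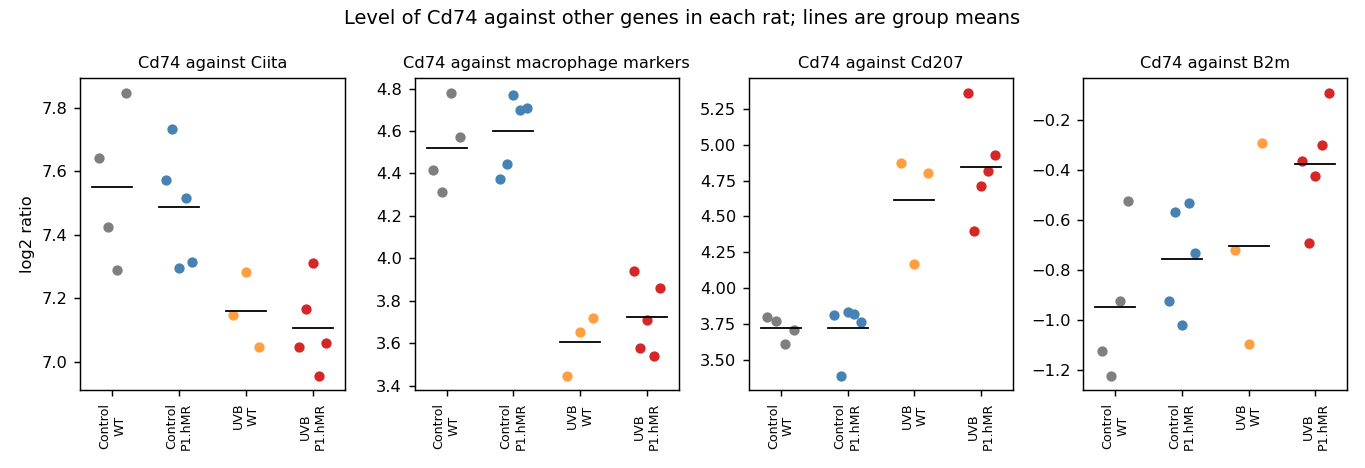
Log2 ratio of Cd74 (y axes, not starting at 0) to Ciita, to the mean of the macrophage markers, to Cd207 and to B2m in each rat of the 4 groups; lines are group means. The ratio to Ciita uses TPM and the others log2(TPM + 1). UVB rats lie apart from control rats of their genotype, lower for macrophage markers and higher for Cd207.

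Cd74 and Ciita varied together from rat to rat. Each rat's log2(TPM + 1) value was taken as its deviation from the mean of its own group, so that differences between groups did not enter. Over the 17 rats Pearson's r between Cd74 and Ciita was 0.82 (permutation within groups, p = 0.0017, adjusted p = 0.00516 over 10 relations) and Spearman's rho 0.83 (p = 0.00113, adjusted p = 0.00565). Without the 2 rats farthest from the median of Cd74 (UVB WT rat 2 and Control WT rat 4) r was 0.85. It was 0.70 over the control rats alone and 0.97 over the UVB rats alone.

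**Figure D5:**
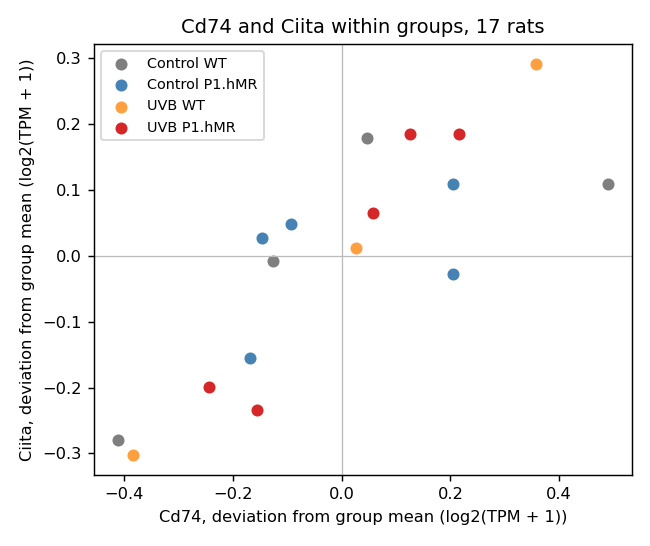
Deviation of Ciita (y axis) against that of Cd74 (x axis) from the mean of each rat's group, on the log2(TPM + 1) scale, 1 point per rat, coloured by group. Rats with more Cd74 than their group also had more Ciita, with r = 0.82 over 17 rats.

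Of the 9 marker lists set against Cd74 in the same way, the leukocyte list followed it most closely. Pearson's r was 0.92 for the 5 leukocyte markers (permutation adjusted p = 0.0015, Spearman's rho 0.86, adjusted p = 0.0034, r = 0.86 without those 2 rats). It was 0.80 for macrophage markers (adjusted p = 0.00516, rho 0.74, adjusted p = 0.011, r = 0.68 without the 2 rats) and 0.76 for dendritic cell markers (adjusted p = 0.00516, rho 0.75, adjusted p = 0.0105, r = 0.69 without them). T cell markers gave r = 0.64 (adjusted p = 0.0143, rho 0.63, adjusted p = 0.0214, 0.59 without them). So rats whose libraries held more leukocyte RNA than others of their group also held more Cd74, in control rats (r = 0.95) and in UVB rats (r = 0.90).

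Langerhans cell markers gave r = 0.60 (permutation adjusted p = 0.0493), but rho was 0.45 (adjusted p = 0.121). This relation was 0.98 over the 9 control rats and -0.08 over the 8 UVB rats, a difference that was not tested, and 0.50 without the 2 rats. Meibocyte markers ran against Cd74 (r = -0.76, adjusted p = 0.00516, rho -0.72, adjusted p = 0.011, -0.69 without the 2 rats). Hair keratins gave r = 0.67 (adjusted p = 0.0216, rho 0.65, adjusted p = 0.025, 0.58 without them). Endothelial markers (r = 0.58, adjusted p = 0.0665, rho 0.55, adjusted p = 0.0623) and muscle markers (r = -0.25, adjusted p = 0.418, rho -0.28, adjusted p = 0.352) did not pass. The part that the mix of tissues in each dissected gland had in the spread of Cd74 was not tested beyond these values.

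The genes closest to the mean profile of Cd74 and Ciita across the 17 rats are given as a description, with no test. Out of 13105 genes they were Vim (r = 0.93), RGD1563680 (0.91), Rnf34 (0.91), Dpysl3 (0.90), Myo1e (0.90), Grn (0.89), Gpr183 (0.89), Fmnl1 (0.88), Wasf2 (0.88) and Cd37 (0.87), against a median r of 0.09 over all genes tested. Vim (vimentin) is an intermediate filament of mesenchymal cells and leukocytes, Grn encodes the lysosomal protein progranulin, Gpr183 is an oxysterol receptor that guides lymphocytes and dendritic cells, and Cd37 is a tetraspanin of leukocytes. Like Cd74 and Ciita, none of these 10 genes was called in either UVB comparison. Vim averaged 265 TPM over all rats, near the 271 TPM of Cd74, and Gpr183 averaged 1.11 TPM.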

How the data were processed

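RNA was taken from the meibomian glands of the rats of the 4 groups. According to the study's methods, reads were quality-checked with FastQC, aligned to rn7 with STAR 2.5.3 and quantified with RSEM 1.2.28, whereas the submitters' processing notes also name Trimmomatic, DRAGEN and Picard, and which tools made the table is not settled here. The values deposited by the authors are TPM per gene and rat, written with decimal commas (recorded as a unit of other kind), and no counts, so no count test was run and no counting error is given. Values were read as log2(TPM + 1), which understates changes of low genes. The 13105 of 17251 genes that reached 1 TPM in 3 or more rats were fitted with limma 3.58.1 (R 4.3.3, variance trend) on 4 group means over all 17 rats, with Benjamini-Hochberg adjustment. Thresholds for a call, adjusted p under 0.05 with a log2 change of 0.5 or more either way, follow the study's methods. The script was tested on simulated data. Relations used deviations from group means with 100000 permutations within groups, and ratios used exact permutation tests (scipy 1.17.1). The members and gene lists were chosen with earlier results of these data known. Named beside the members were list counts, up to 3 called genes per list with the greatest change in each UVB comparison, and the 10 genes closest to the members' profile. Alternatives were other pseudocounts, filters, scalings, thresholds and fits, a replicate block, and each rat left out in turn.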

Additional observations from a re-analysis of the deposited data

Results flagged for a closer look

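Of 111 groups of 4 or 5 rats examined over 37 named genes, 5 held a rat set apart from the others of its group by Dixon's criterion, which chance alone meets in about 1 in 20 groups. None of the 5 concerned Cd74 or Ciita. Cd80 was highest in Control WT rat 1 at 0.53 TPM, against 0.30 in the next rat. Cd8a was lowest in the same rat at 0.18 TPM, against 0.33. Ctsz was highest in Control P1.hMR rat 4 at 45.93 TPM, against 36.47. Flt3 was highest in UVB P1.hMR rat 1 at 2.06 TPM, against 1.71. Nlrc5 was highest in UVB P1.hMR rat 2 at 2.23 TPM, against 1.90.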

How the results depend on the processing

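Under every alternative run, neither Cd74 nor Ciita was called in any comparison. Ciita could not be tested with a filter of a mean of at least 5 TPM. Over all settings the UVB difference of Cd74 lay between -0.40 and -0.03 in WT and between -0.19 and -0.07 in P1.hMR rats, and that of Ciita between -0.04 and 0.26 and between 0.11 and 0.23. Ciita in WT changed sign without UVB WT rat 3 (-0.0375). The difference between the genotypes' UVB effects changed sign with a single rat left out for Cd74 (-0.11 to 0.26) and Ciita (-0.10 to 0.20), and for Cd74 also with a replicate block (-0.0065). Between rats with the same number in different groups, correlations were -0.19 to 0.24. For Control P1.hMR against Control WT rats they were 0.19, 0.04, 0.12 and 0.24. There 2 of 4 numbers matched best with their own, and 0 did in the other comparisons. The numbers were not taken as pairs, and the block changed no call of the members. With a pseudocount of 0.1 the relation of Cd74 to Langerhans cell markers was r = 0.59 (permutation adjusted p = 0.0548), while the calls of the other relations held. No scaling moved the median over all genes by more than 0.1. The ratio of Cd74 to B2m in P1.hMR rats ranged from 0.31 to 0.46 with a rat left out. The causes were not tested. TPM carries no counts and mapped reads are given only as a range over libraries, so no counting error could be set beside Ciita, near 1 to 2 TPM.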
